A study of Mus musculus with 10 samples.

Results

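The genes described here encode the granule proteins, cytosolic effectors, receptors and oxidase subunits that a neutrophil carries into tissue. The set was a named list of 34 mouse genes, taken by name and not by any measured value. Each was represented by the probe set with a single gene symbol that had the highest mean over the 10 arrays, and 33 of the 34 had one, out of 18193 genes measured in this way. The gene without such a probe set, Fpr1, was not analysed here. By role, 6 of the measured genes belong to azurophil (primary) or early granules, 13 to specific or gelatinase granules, 5 to the cytosolic and broad myeloid group, 5 are cell surface receptors and 4 are subunits of the NADPH oxidase.

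RNA came from mouse bone marrow cells that had been enriched for stem and progenitor cells and infected with a MigR1 retrovirus, whose green fluorescent protein marked the infected cells. In the W692A group (4 arrays) the virus encoded AML1/ETO with the W692A substitution, in the AML1/ETO group (3 arrays) it encoded AML1/ETO, the fusion protein of acute myeloid leukaemia with a translocation of RUNX1 and ETO, and in the GFP group (3 arrays) it was the MigR1 vector alone. The substitution lies in the MYND domain, the part of ETO that binds the corepressors SMRT and N-CoR, and the comparisons ask how the fusion and a change in this contact alter gene expression. In all 3 groups the donors were C57BL/6 mice of 5 to 6 weeks, the cells were held in medium with IL-3 (10 ng/ml), IL-6 (20 ng/ml) and SCF (10 ng/ml), and 48 hours after the second of the infections 25000 live, lineage-negative, Sca1-positive, cKit-positive, GFP-positive cells were sorted. Each array was an independent transduction of normal cells in culture for a few days, with 50 ng of RNA amplified before labelling, so no group is a model of established leukaemia. The labels do not say whether the transductions used different mice, so p-values measure the spread between these samples.

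Neutrophils fill their granules in sequence as they mature. Promyelocytes make the azurophil granules with myeloperoxidase and serine proteases, myelocytes and metamyelocytes make the specific granules with lactoferrin and cathelicidin, and later stages make the gelatinase granules and the receptors for chemoattractants. The transcription factors C/EBPα, PU.1, GFI1 and C/EBPε control this sequence in mouse and human marrow.

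Values are log2 intensities, so a difference of 1 is a doubling. The number of arrays limits the precision. A background bound of 2.04 was set at the brightest value of the bacterial control probe sets that were not spiked in, and 26 of the 33 genes exceeded it in the mean of at least 1 group; the other 7 (Fpr2, Mmp9, Itgb2l, Olfm4, Pglyrp1, Cxcr2 and Cd177) did not. The levels of different probe sets cannot be set against each other. Since the RNA was from bulk cells, fewer cells of a type and less RNA per cell cannot be told apart.

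Of the sorted cells' own markers, Cd34 lay at 4.79 to 6.90 and Flt3 at 4.00 to 5.20 over all arrays, while Kit was below the bound on every array (0.95 to 1.97). Runx1, part of the fusion, was brighter than with GFP in both other groups, while Runx1t1, the mouse ETO gene, lay at 0.53 to 0.86 on W692A arrays, 2.10 to 3.13 on AML1/ETO arrays and 0.42 to 1.03 on GFP arrays. Whether either probe set reads the retroviral construct is not known. Pearson correlations over genes above the bound were 0.982 to 0.992 between replicates and 0.887 to 0.962 across groups. The Gapdh 3′ minus 5′ difference, a sign of RNA integrity and amplification, was 3.81 to 4.17 on W692A arrays, 4.08, 4.01 and 5.04 on AML1/ETO replicates 1, 2 and 3, and 4.83 to 4.99 on GFP arrays. Of 10 measured stem and progenitor markers, 7 were higher and 1 lower with W692A than with GFP, and 8 higher and 1 lower with AML1/ETO than with GFP. Over all genes, 5.45% were higher and 9.07% lower with W692A, and 12.9% higher and 15.8% lower with AML1/ETO. The mean level of these markers was 5.11 to 5.37 with W692A, 5.77 to 5.89 with AML1/ETO and 4.15 to 4.32 with GFP. Their part in the results that follow was not tested. AML1/ETO replicate 3 stood apart from its group in the Gapdh difference and in several neutrophil genes, and results that rest on it are given with and without it.

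With AML1/ETO, granule and oxidase genes moved in both directions. Compared with GFP, 13 of 33 genes were lower and 6 higher (limma, adjusted p under 0.05), which is 19 in all. Over all 18193 genes, 28.6% were called, 15.8% lower and 12.9% higher. The lower ones were led by Ffar2, Ngp and Hp, and the higher ones by Lcn2, Mmp8 and Lyz2. The median difference over the 33 genes was -0.45, against -0.02 over all genes. The arrays of the groups did not overlap for 18 of the 33, against 39.1% of all genes. Of the 19 calls, 14 remained whichever of the 10 arrays was left out. The exceptions were Camp, Chil3, Cyba, S100a8 and S100a9, and the count of lower genes was 8 without GFP replicate 1 and 8 without AML1/ETO replicate 2. When the Gapdh difference entered the fit as a covariate, 9 of the 33 genes were lower and 7 higher, against 21.3% of all genes called (11.2% lower and 10.1% higher). The same 5 calls were lost in that fit, and Ctsg (higher) and Cybb (lower) were gained. Within groups the Gapdh difference varied mainly through AML1/ETO replicate 3 (5.04, against 4.08 and 4.01 on replicates 1 and 2). The slope of the covariate therefore rests largely on that array. Fits with this covariate cannot separate RNA integrity from the other departures of replicate 3.

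With W692A, 11 of the 33 genes were lower than with GFP and 6 higher, which is 17 in all, against 14.5% of all genes called (9.07% lower and 5.45% higher). Chil3, Ngp, Ffar2 and Elane led the lower ones, and Mmp8, Mgst1 and Lyz2 the higher ones. The median over the 33 genes was -0.25, against 0.01 over all genes, and the groups did not overlap for 18, against 22.3% of all genes. Of the 17 calls, 10 remained whichever array was left out, and without GFP replicate 1 the counts were 7 lower and 3 higher. In the Gapdh 3′ minus 5′ difference the W692A arrays were all below the GFP arrays. With that difference as a covariate 3 of the 33 genes were lower (Elane, Ffar2 and Prtn3) and 2 higher (Mgst1 and S100a8), against 2.78% of all genes called (1.52% lower and 1.26% higher). The 13 calls lost in that fit were those of Camp, Chil3, Csf3r, Cxcr2, Hp, Lcn2, Ltf, Lyz2, Mmp8, Mpo, Ncf1, Ncf4 and Ngp, which applies to each W692A call against GFP given for these genes in the paragraphs that follow. The slope used there came largely from AML1/ETO replicate 3, which is in neither of these groups.

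Between the constructs, 7 of the 33 genes were higher with W692A than with AML1/ETO and 4 lower, 11 in all, against 20.7% of all genes called (9.61% higher and 11.1% lower). The higher ones were Ffar2, Padi4, Ncf1, Hp, Cyba, Ms4a3 and Csf3r. The lower ones were Lcn2, Lyz2, Ltb4r1 and Elane. The median was -0.03, against 0.03 over all genes, and the arrays did not overlap for 10 of the 33, against 27.2% of all genes. Of the 11 calls, 7 remained whichever array was left out, with Csf3r, Cyba, Elane and Hp as the exceptions. With the Gapdh covariate 8 were higher and 3 lower, against 17.3% of all genes (8.09% higher and 9.22% lower): Csf3r, Cyba and Elane were lost, and Ngp, S100a8 and S100a9 were gained on the higher side. The comparisons with GFP share the GFP arrays, and this one shares arrays with both.

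**Figure D1:**
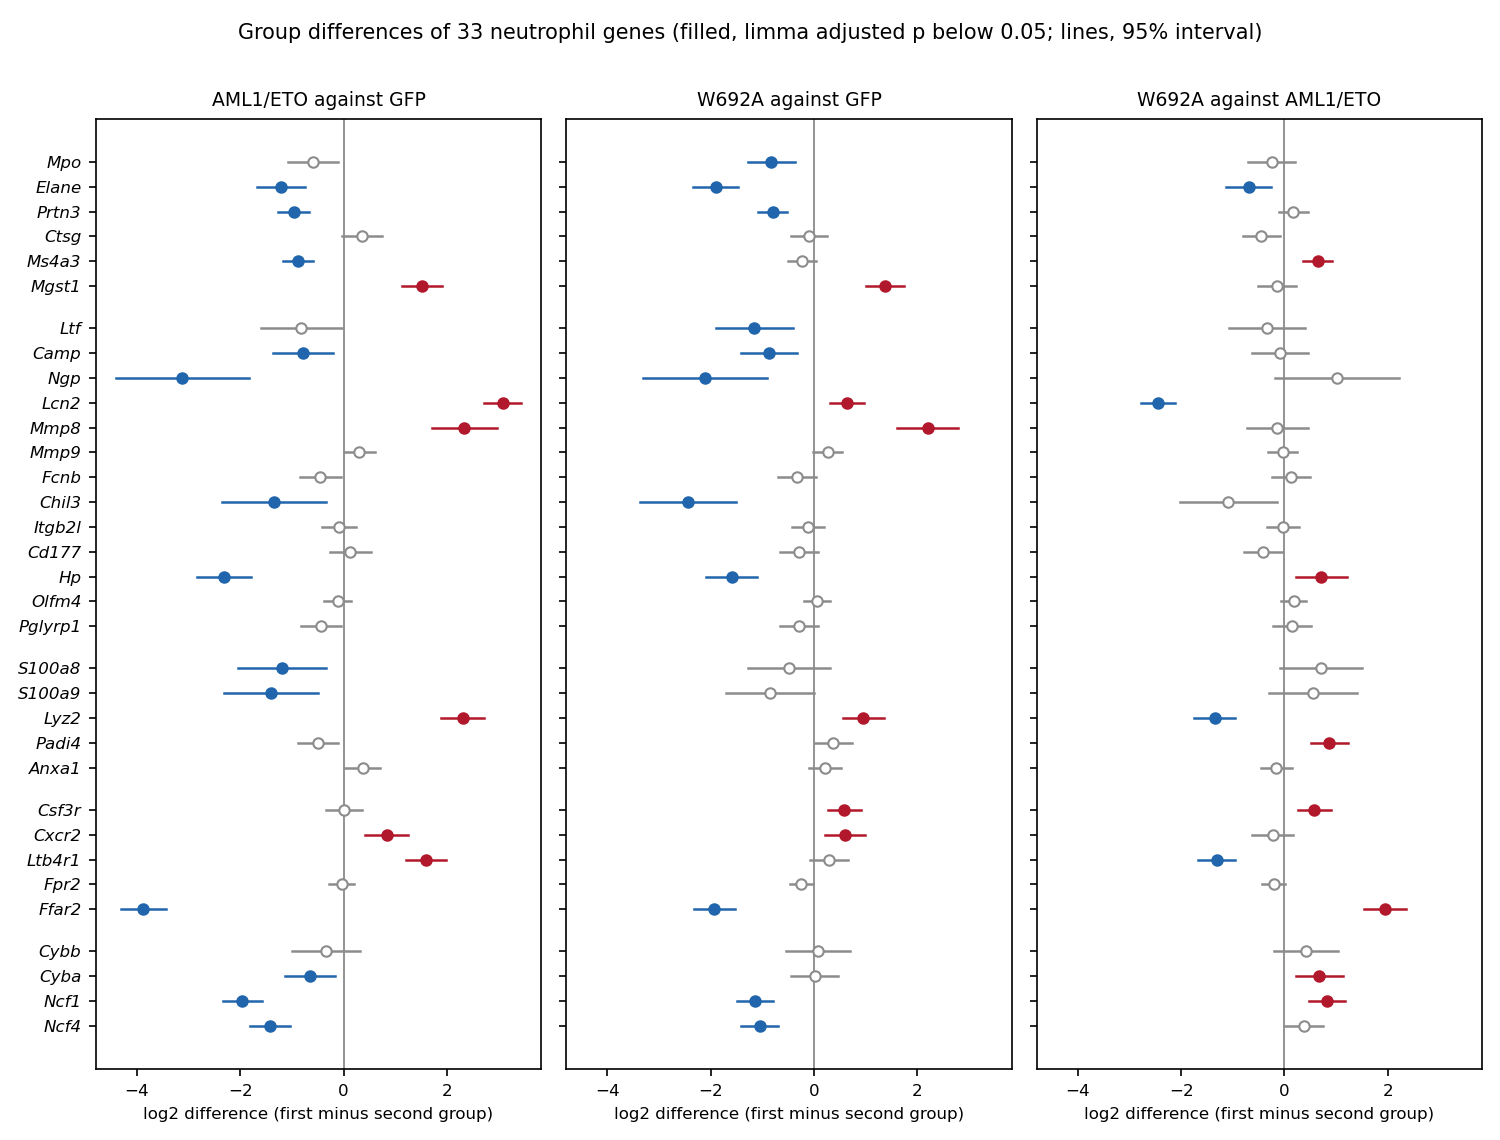
Log2 differences (first minus second group, horizontal axis) of the 33 genes in the 3 comparisons, grouped by role from azurophil granule (top) to NADPH oxidase (bottom). Circles are limma estimates with their 95% interval, filled where the adjusted p was under 0.05 (red higher, blue lower); Ffar2 lies farthest left (-3.88) and Lcn2 farthest right (3.08) in AML1/ETO against GFP, and both lie on the other side of 0 in W692A against AML1/ETO.

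The plot of differences shows the split within each role. In the azurophil and early granule group, 3 of 6 genes were lower with AML1/ETO than with GFP and 1 was higher. With W692A the counts against GFP were also 3 lower and 1 higher, with Elane and Prtn3 in both counts, Ms4a3 called lower with AML1/ETO and Mpo called lower with W692A. Between the constructs Elane (lower with W692A) and Ms4a3 (higher) were the 2 genes of this role that passed the test.

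Elane encodes neutrophil elastase, a serine protease that is mutated in human congenital neutropenia. It lay at 4.44, 5.03, 4.29 and 5.11 on the W692A arrays, at 5.20, 5.57 and 5.47 on the AML1/ETO arrays and at 6.32, 6.59 and 6.97 on the GFP arrays. The 3 groups did not overlap, and W692A was the lowest. Elane fell 3.75-fold with W692A (log2 difference -1.91 ± 0.20 SE, limma adjusted p = 1.33e-05) and 2.32-fold with AML1/ETO (-1.21 ± 0.22, adjusted p = 0.000476), both against GFP. The W692A arrays were lower than the AML1/ETO arrays by the fit (-0.69 ± 0.20, adjusted p = 0.0232), a call that was lost without AML1/ETO replicate 2 or 3 or W692A replicate 1 or 3 (adjusted p up to 0.100).

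Prtn3 encodes proteinase 3, a relative of elastase whose gene is the direct neighbour of Elane on chromosome 10. It lay at 8.54, 8.76, 8.71 and 8.82 on the W692A arrays, at 8.51, 8.82 and 8.29 on the AML1/ETO arrays and at 9.44, 9.47 and 9.61 on the GFP arrays. Every array of either construct was below every GFP array, and the constructs overlapped. Prtn3 was 1.74-fold lower with W692A (-0.80 ± 0.13, adjusted p = 0.00074) and 1.95-fold lower with AML1/ETO (-0.97 ± 0.14, adjusted p = 7.15e-05) than with GFP. The constructs differed by 0.17, with a 95% interval from -0.11 to 0.45.

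Mpo encodes myeloperoxidase, which makes hypochlorous acid from hydrogen peroxide. Its values were 7.42, 8.45, 7.85 and 8.30 on the W692A arrays, 8.06, 8.13 and 8.56 on the AML1/ETO arrays and 8.94, 8.58 and 8.99 on the GFP arrays. All arrays of both constructs lay below all GFP arrays, AML1/ETO replicate 3 by the smallest margin. Mpo was 1.78-fold lower with W692A than with GFP (-0.83 ± 0.21, adjusted p = 0.0157; up to 0.0716 when GFP replicate 1 or 3 was left out). With AML1/ETO the difference of -0.58 ± 0.23 did not pass the test (adjusted p = 0.0702), and without AML1/ETO replicate 3 it did (-0.74, adjusted p = 0.0369).

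Ctsg, the gene of cathepsin G, was the serine protease gene with no call in the fit of all arrays. It lay at 9.34, 9.78, 9.36 and 9.67 on the W692A arrays, at 9.78, 9.80 and 10.39 on the AML1/ETO arrays and at 9.54, 9.50 and 9.87 on the GFP arrays. The groups overlapped. The differences from GFP were -0.10 with W692A (95% interval -0.45 to 0.26) and 0.35 with AML1/ETO (-0.03 to 0.74), and neither passed the test (adjusted p = 0.792 and 0.179). With the Gapdh covariate the differences were 0.53 with W692A (adjusted p = 0.284) and 0.73 with AML1/ETO, which was then called higher (adjusted p = 0.00561).

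The other early genes also parted. Mgst1, a membrane-bound glutathione transferase, lay at 6.24, 6.26, 5.79 and 6.43 on the W692A arrays, at 6.35, 6.45 and 6.18 on the AML1/ETO arrays and at 4.48, 5.15 and 4.79 on the GFP arrays. It was 2.59-fold higher with W692A (1.38 ± 0.17, adjusted p = 5.72e-05) and 2.87-fold higher with AML1/ETO (1.52 ± 0.18, adjusted p = 1.13e-05) than with GFP, with no overlap. Ms4a3, a membrane protein of granulocyte and monocyte progenitors, averaged 8.49 ± 0.11 with W692A, 7.85 ± 0.16 with AML1/ETO and 8.73 ± 0.22 with GFP (SD, n = 4, 3 and 3). AML1/ETO arrays were below GFP arrays (-0.88 ± 0.14, adjusted p = 0.000152), and with W692A it was higher than with AML1/ETO (0.64 ± 0.13, adjusted p = 0.00211).

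The promoters of the serine protease genes are shown because Elane and Prtn3 were called lower with both constructs and Ctsg was not. Each run is the 250 bases before the start of the gene, from RefSeq on GRCm38.p6, written 5′ to 3′ on the strand of the gene. Capitals mark the RUNX motif TGTGGT, which AML1 binds, the C/EBP motif TTGCNNAA and the PU.1-type ETS motif GAGGAA, each on either strand. The windows are chr10:79886062-79886311 (plus strand) for Elane, chr10:79879417-79879666 (plus strand) for Prtn3 and chr14:56102575-56102824 (minus strand) for Ctsg.
Elane: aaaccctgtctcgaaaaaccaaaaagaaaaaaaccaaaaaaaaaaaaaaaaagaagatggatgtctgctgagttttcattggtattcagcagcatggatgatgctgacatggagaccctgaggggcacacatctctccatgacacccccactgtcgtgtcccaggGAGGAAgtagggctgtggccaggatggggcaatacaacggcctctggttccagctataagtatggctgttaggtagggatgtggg
Prtn3: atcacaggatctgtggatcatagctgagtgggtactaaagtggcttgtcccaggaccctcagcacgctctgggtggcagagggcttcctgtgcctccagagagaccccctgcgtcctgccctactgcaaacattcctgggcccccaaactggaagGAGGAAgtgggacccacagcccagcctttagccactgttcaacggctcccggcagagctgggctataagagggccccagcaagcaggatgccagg
Ctsg: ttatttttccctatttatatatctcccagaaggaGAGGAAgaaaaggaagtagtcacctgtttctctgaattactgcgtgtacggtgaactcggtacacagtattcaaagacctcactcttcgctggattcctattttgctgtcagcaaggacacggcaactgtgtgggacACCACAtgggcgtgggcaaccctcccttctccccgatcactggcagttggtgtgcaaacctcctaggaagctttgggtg
Elane and Prtn3 have the ETS letters once each, 85 and 95 bases before the start. Ctsg has them 216 bases before the start and the reverse of the RUNX letters at 79.

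Of the 33 measured genes, 30 had a promoter entry. In these windows the ETS letters occurred in 19 of 30 (63.3%), against 25.9% of the 27025 genes in the table. The C/EBP letters occurred in 9 of 30 (30.0%, against 10.8%) and the RUNX letters in 5 of 30 (16.7%, against 15.9%). In the windows printed here no match overlapped another. A match is a description of the letters, not of binding, and only the 250 bases before the start were searched.

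Among the 13 genes of the specific and gelatinase granules, 4 were lower and 2 higher with AML1/ETO than with GFP, and 5 lower and 2 higher with W692A than with GFP. Lower with AML1/ETO were Ngp, Hp, Chil3 and Camp, and lower with W692A were these 4 and Ltf. Lcn2 and Mmp8 were the higher genes against GFP with either construct. Between the constructs Lcn2 was lower and Hp higher with W692A. Mmp9, Itgb2l, Cd177, Olfm4 and Pglyrp1 had no group mean above the bound and no call in the 3 comparisons, with values from 0.35 to 1.72. Fcnb, the gene of a ficolin that binds microbial sugars, averaged 1.71 with W692A, 1.59 with AML1/ETO and 2.04 with GFP, without a call.

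Ngp encodes neutrophilic granule protein, a cystatin-like protein of specific granules. Its values were 4.96, 5.50, 4.92 and 4.19 on the W692A arrays, 3.15, 2.60 and 5.88 on the AML1/ETO arrays and 7.45, 6.39 and 7.15 on the GFP arrays. All arrays of both constructs were below all GFP arrays, but AML1/ETO replicate 3 was nearer to GFP than replicates 1 and 2 were, and above every W692A array. Ngp was 4.30-fold lower with W692A (-2.10 ± 0.56, adjusted p = 0.0198; lost without GFP replicate 1 or 3 or W692A replicate 4, adjusted p up to 0.101) and 8.70-fold lower with AML1/ETO (-3.12 ± 0.60, adjusted p = 0.00088) than with GFP. Without AML1/ETO replicate 3 the AML1/ETO difference was -4.12 and W692A was higher than AML1/ETO (2.02, adjusted p = 0.00044). With all arrays that last difference was 1.02 and did not pass the test (adjusted p = 0.258). With the Gapdh covariate the difference from GFP turned to 0.18 with W692A (adjusted p = 0.962) and was -1.75 with AML1/ETO (adjusted p = 0.0198).

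Chil3 encodes a chitinase-like protein of mouse neutrophils and macrophages. It lay at 7.02, 7.52, 6.82 and 7.08 on the W692A arrays, at 7.61, 7.15 and 9.86 on the AML1/ETO arrays and at 9.50, 9.35 and 9.81 on the GFP arrays. The W692A arrays and AML1/ETO replicates 1 and 2 were all below GFP, and AML1/ETO replicate 3 was above it. Chil3 was 5.43-fold lower with W692A than with GFP (-2.44 ± 0.44, adjusted p = 0.00148), a call that remained whichever array was left out. With the Gapdh covariate, whose slope rests largely on AML1/ETO replicate 3, it was -0.28 with W692A (adjusted p = 0.812) and -0.05 with AML1/ETO (adjusted p = 0.933). Neither difference was called. With AML1/ETO the difference of the fit without that covariate was -1.35 ± 0.47 (adjusted p = 0.0429), lost in 7 of 10 fits with an array left out; it was -2.17 without AML1/ETO replicate 3 (adjusted p = 2.41e-06) and -0.82 without replicate 2 (adjusted p = 0.234). A near-identical copy, Chil4, may share its signal, and the probe set that names both genes was not used.

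Hp encodes haptoglobin, which binds free haemoglobin and is stored in specific granules. It lay at 3.90, 4.29, 3.08 and 4.00 on the W692A arrays, at 2.92, 3.05 and 3.33 on the AML1/ETO arrays and at 5.24, 5.25 and 5.75 on the GFP arrays. All GFP arrays were above both constructs, and W692A replicate 3 lay within the AML1/ETO range. Hp was 3.03-fold lower with W692A (-1.60 ± 0.23, adjusted p = 0.000213) and 4.98-fold lower with AML1/ETO (-2.31 ± 0.24, adjusted p = 3.18e-06) than with GFP. The difference of W692A from AML1/ETO was 0.72 ± 0.23 (adjusted p = 0.0356), lost in 5 of 10 fits with an array left out (up to 0.134).

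Camp, the precursor of the cathelicidin antimicrobial peptide, lay at 2.33, 2.84, 2.37 and 2.46 on the W692A arrays, at 2.51, 1.92 and 3.32 on the AML1/ETO arrays and at 3.69, 3.02 and 3.38 on the GFP arrays. The W692A arrays and AML1/ETO replicates 1 and 2 were below GFP, and AML1/ETO replicate 3 lay within the GFP range. Camp was 1.82-fold lower with W692A (-0.87 ± 0.25, adjusted p = 0.0329) and at least 1.67-fold lower with AML1/ETO (-0.78 ± 0.27, adjusted p = 0.0430) than with GFP, and each call was lost in 5 of 10 fits with an array left out. The Camp differences with the Gapdh covariate were 0.073 with W692A and -0.22 with AML1/ETO, without a call. Ltf, the gene of the iron-binding lactoferrin, lay at 1.22, 1.69, 1.29 and 0.90 on the W692A arrays, at 1.42, 1.54 and 1.88 on the AML1/ETO arrays and at 3.63, 1.54 and 2.12 on the GFP arrays. GFP replicate 2 lay within the range of both constructs. The Ltf call against GFP with W692A (-1.15 ± 0.35, adjusted p = 0.0367) was lost without GFP replicate 1 or W692A replicate 1, 3 or 4 (adjusted p up to 0.141), and the difference was -0.55 without GFP replicate 1.

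Lcn2 and Mmp8 went the other way. Lcn2 encodes lipocalin 2, which binds bacterial siderophores. It lay at 3.65, 3.93, 3.96 and 4.31 on the W692A arrays, at 6.16, 6.47 and 6.61 on the AML1/ETO arrays and at 3.19, 3.34 and 3.46 on the GFP arrays. The 3 groups did not overlap, AML1/ETO replicate 3 was the brightest array and W692A was much nearer to GFP. Lcn2 was 1.55-fold higher with W692A (0.63 ± 0.15, adjusted p = 0.0121; 0.0678 without GFP replicate 1) and 8.46-fold higher with AML1/ETO (3.08 ± 0.16, adjusted p = 2.95e-09) than with GFP. W692A was 5.47-fold below AML1/ETO (-2.45 ± 0.15, adjusted p = 5.62e-08).

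Mmp8 encodes neutrophil collagenase. It lay at 3.54, 2.50, 3.33 and 3.67 on the W692A arrays, at 3.83, 3.65 and 2.72 on the AML1/ETO arrays and at 1.05, 0.81 and 1.32 on the GFP arrays. All arrays of both constructs were above the bound and all GFP arrays below it. Mmp8 was at least 2.33-fold higher with W692A (adjusted p = 6.94e-05) and at least 2.56-fold higher with AML1/ETO (adjusted p = 1.99e-05) than with GFP, with GFP set to the bound. The constructs differed by -0.14, with a 95% interval from -0.73 to 0.45.

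The promoter windows of Lcn2, Mmp8 and Ngp are shown because these specific granule genes moved in opposite directions. Each holds the C/EBP letters: Lcn2 at 216 bases before the start, Mmp8 at 19, and Ngp at 138 and, reversed, at 11. The reverse of the ETS letters stands 20 bases before the start of Lcn2 and 219 before that of Mmp8. The windows are chr2:32387740-32387989 (minus strand), chr9:7558179-7558428 (plus strand) and chr9:110419558-110419807 (plus strand) on GRCm38.p6.
Lcn2: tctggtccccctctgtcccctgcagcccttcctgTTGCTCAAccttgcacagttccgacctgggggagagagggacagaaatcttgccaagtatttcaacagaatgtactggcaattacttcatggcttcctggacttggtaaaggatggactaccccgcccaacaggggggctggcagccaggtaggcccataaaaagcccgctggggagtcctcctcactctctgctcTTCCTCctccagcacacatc
Mmp8: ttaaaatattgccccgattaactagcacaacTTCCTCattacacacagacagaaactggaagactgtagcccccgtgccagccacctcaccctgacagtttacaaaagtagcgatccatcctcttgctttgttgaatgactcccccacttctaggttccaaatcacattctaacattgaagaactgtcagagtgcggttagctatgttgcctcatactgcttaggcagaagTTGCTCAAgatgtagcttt
Ngp: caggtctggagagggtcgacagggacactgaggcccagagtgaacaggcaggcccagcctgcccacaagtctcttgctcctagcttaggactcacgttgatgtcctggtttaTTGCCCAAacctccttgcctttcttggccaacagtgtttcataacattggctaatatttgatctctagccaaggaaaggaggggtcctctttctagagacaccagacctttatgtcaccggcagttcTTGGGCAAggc

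**Figure D2:**
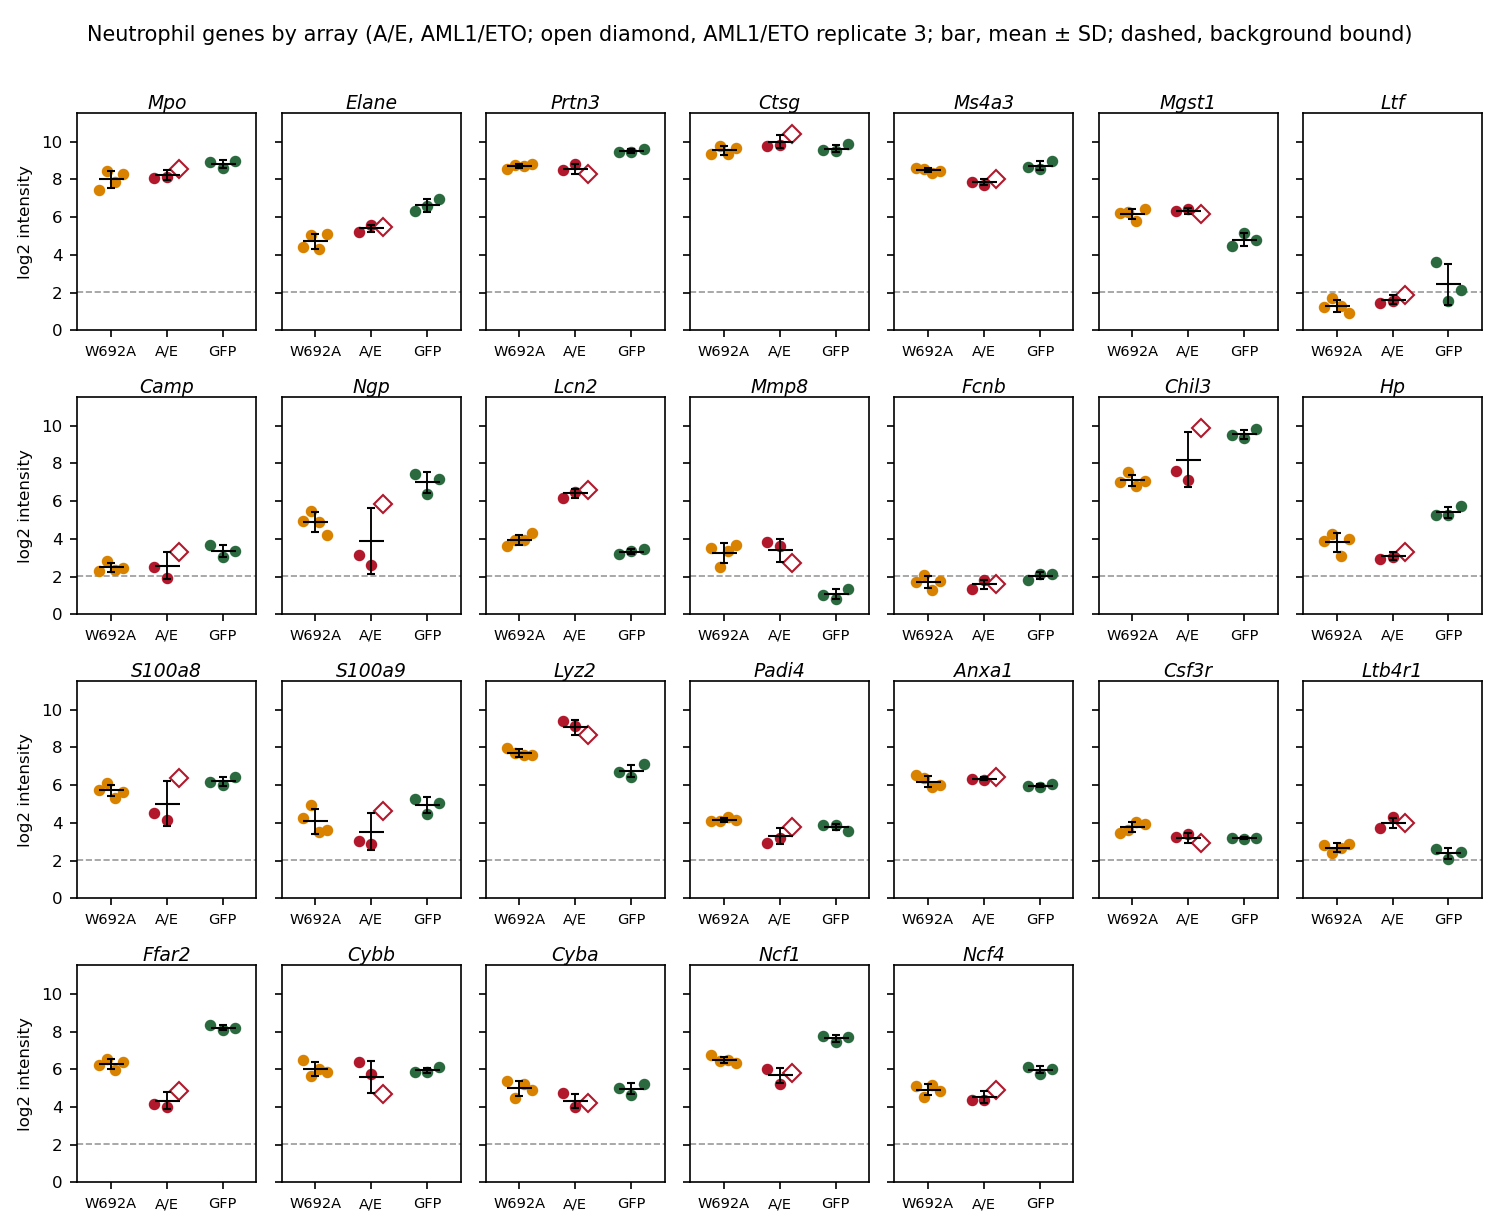
Log2 intensity (vertical axis) of the 26 genes above the bound on each of the 4 W692A, 3 AML1/ETO (A/E) and 3 GFP arrays, with the mean ± SD as a bar; the open diamond is AML1/ETO replicate 3 and the dashed line the background bound of 2.04. The diamond lies near the GFP points for Chil3, S100a8, S100a9 and Camp, between them and the other AML1/ETO points for Ngp, and with the other AML1/ETO points for Lcn2, Hp, Ffar2 and Ncf1.

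The plot by array carries the remaining roles as well. Of the 5 cytosolic and broad myeloid genes, 2 were lower and 1 higher with AML1/ETO than with GFP, and 1 was higher with W692A than with GFP. S100a8 and S100a9, neighbours on chromosome 3, encode the subunits of calprotectin, a calcium- and zinc-binding protein that fills the neutrophil cytosol. S100a8 lay at 5.76, 6.11, 5.35 and 5.66 on the W692A arrays, at 4.53, 4.13 and 6.37 on the AML1/ETO arrays and at 6.14, 6.01 and 6.46 on the GFP arrays. S100a9 lay at 4.26, 4.97, 3.49 and 3.61 on the W692A arrays, at 3.06, 2.87 and 4.66 on the AML1/ETO arrays and at 5.28, 4.45 and 5.08 on the GFP arrays. For both genes AML1/ETO replicates 1 and 2 were the lowest of all 10 arrays and replicate 3 lay within the GFP range.

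With AML1/ETO, S100a8 was 2.29-fold lower (-1.20 ± 0.40, adjusted p = 0.0353) and S100a9 2.65-fold lower (-1.40 ± 0.42, adjusted p = 0.0201) than with GFP. These calls were lost in 5 and 4 of 10 fits with an array left out, and without AML1/ETO replicate 3 the differences were -1.88 and -1.97 (adjusted p = 9.53e-06 and 0.000599). With W692A the differences from GFP did not pass the test, at -0.49 for S100a8 (adjusted p = 0.482) and -0.85 for S100a9 (adjusted p = 0.189). With the Gapdh covariate these turned to 1.32 for S100a8, then called higher (adjusted p = 0.0158), and to 0.61 for S100a9 (adjusted p = 0.735). In that fit the AML1/ETO differences from GFP were -0.11 for S100a8 and -0.53 for S100a9, both without a call. Without AML1/ETO replicate 3 both genes were higher with W692A than with AML1/ETO, by 1.39 (adjusted p = 0.000208) and 1.11 (adjusted p = 0.0316), which was not so with all arrays (adjusted p = 0.233 and 0.416).

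Lyz2 encodes lysozyme M, made by neutrophils, monocytes and macrophages. It lay at 7.99, 7.70, 7.57 and 7.59 on the W692A arrays, at 9.40, 9.13 and 8.65 on the AML1/ETO arrays and at 6.70, 6.45 and 7.12 on the GFP arrays. The 3 groups did not overlap and W692A lay between the others. Lyz2 was 1.94-fold higher with W692A (0.96 ± 0.19, adjusted p = 0.00262) and 4.94-fold higher with AML1/ETO (2.30 ± 0.20, adjusted p = 4.54e-07) than with GFP, and lower with W692A than with AML1/ETO (-1.35 ± 0.19, adjusted p = 9.48e-05). Lyz1 is a near-identical copy, so the probe sets of both may read either. Against GFP, more monocyte and macrophage markers were called higher than lower: 11 of 13 measured were above the bound, 6 were higher and 1 lower with W692A than with GFP, 7 higher and 3 lower with AML1/ETO than with GFP, and their mean level was 5.25 to 5.45 with W692A, 5.13 to 5.65 with AML1/ETO and 4.65 to 4.84 with GFP. Between the constructs they did not move with Lyz2: 2 were higher and 3 lower with W692A than with AML1/ETO, with a median difference of -0.06. The part of these markers in the Lyz2 result was not tested.

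The promoter window of Lyz2 is shown because this gene was higher with both constructs and its window holds the RUNX letters, as do those of Ctsg, Cybb, Ltb4r1 and S100a9. It is chr10:117282273-117282522 (minus strand), and the reverse of the RUNX letters, in capitals, stands 66 bases before the start.
Lyz2: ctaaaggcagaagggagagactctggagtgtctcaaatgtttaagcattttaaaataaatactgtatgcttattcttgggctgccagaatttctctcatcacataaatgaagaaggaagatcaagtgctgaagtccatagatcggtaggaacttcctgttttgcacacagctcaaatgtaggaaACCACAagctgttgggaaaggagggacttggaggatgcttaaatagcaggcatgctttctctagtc

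Padi4 encodes the enzyme that citrullinates histones when neutrophils release chromatin traps. It lay at 4.09, 4.11, 4.30 and 4.16 on the W692A arrays, at 2.92, 3.20 and 3.78 on the AML1/ETO arrays and at 3.87, 3.91 and 3.58 on the GFP arrays. The W692A arrays were above all others, and AML1/ETO replicate 3 lay within the GFP range. Padi4 was 1.82-fold higher with W692A than with AML1/ETO (0.87 ± 0.17, adjusted p = 0.00157). Its difference between AML1/ETO and GFP was -0.49 (adjusted p = 0.0539) with all arrays and -0.73 (adjusted p = 0.00183) without replicate 3. Anxa1, the gene of annexin A1, averaged 6.19 ± 0.30 with W692A, 6.35 ± 0.08 with AML1/ETO and 5.98 ± 0.08 with GFP (SD), and no comparison passed the test.

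Of the 5 receptors measured, 2 were higher and 1 lower than GFP with each construct. Ffar2, which senses short-chain fatty acids at the cell surface, fell furthest of the 33 genes with AML1/ETO. It lay at 6.23, 6.55, 5.96 and 6.38 on the W692A arrays, at 4.14, 3.99 and 4.86 on the AML1/ETO arrays and at 8.36, 8.10 and 8.18 on the GFP arrays. The 3 groups were far apart with W692A in the middle, and AML1/ETO replicate 3 stayed with its group. Ffar2 was 3.81-fold lower with W692A (-1.93 ± 0.19, adjusted p = 5.76e-06) and 14.7-fold lower with AML1/ETO (-3.88 ± 0.20, adjusted p = 2.09e-09) than with GFP, and W692A was 3.86-fold above AML1/ETO (1.95 ± 0.19, adjusted p = 3.70e-06). A second, dimmer probe set of Ffar2 gave differences from GFP of -1.60 with W692A and -3.48 with AML1/ETO.

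Ltb4r1 encodes the high-affinity receptor for the chemoattractant leukotriene B4. It lay at 2.84, 2.38, 2.65 and 2.88 on the W692A arrays, at 3.73, 4.29 and 3.97 on the AML1/ETO arrays and at 2.64, 2.07 and 2.48 on the GFP arrays. The AML1/ETO arrays were above all others, while W692A and GFP overlapped. Ltb4r1 was 3.04-fold higher with AML1/ETO than with GFP (1.60 ± 0.18, adjusted p = 6.52e-06) and 2.48-fold lower with W692A than with AML1/ETO (-1.31 ± 0.17, adjusted p = 5.32e-05). W692A differed from GFP by 0.29 (95% interval -0.07 to 0.65, adjusted p = 0.320).

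Csf3r, the receptor for the granulocyte growth factor G-CSF, averaged 3.78 ± 0.27 with W692A, 3.20 ± 0.24 with AML1/ETO and 3.19 ± 0.04 with GFP (SD). It was higher with W692A than with AML1/ETO (0.57 ± 0.15, adjusted p = 0.0125; 0.0777 without AML1/ETO replicate 3) and than with GFP (0.59 ± 0.15, adjusted p = 0.0161; lost in 3 of 10 fits with an array left out). Cxcr2, a chemokine receptor, was called higher against GFP with both constructs, but it was below the bound on every array (1.12 to 1.95 with W692A, 1.31 to 1.82 with AML1/ETO and 0.75 to 0.78 with GFP), so no fold is given, and the W692A call was lost in 4 of 10 fits with an array left out. Fpr2, a formyl peptide receptor, lay at 0.55 to 1.00 over all arrays and had no call.

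The NADPH oxidase makes superoxide at the membrane of the phagosome. Its membrane subunits are encoded by Cybb, the catalytic one, and Cyba, its partner, and its cytosolic organiser and regulator by Ncf1 and Ncf4. With AML1/ETO 3 of 4 were lower than with GFP, and with W692A 2 of 4; with W692A 2 of 4 were higher than with AML1/ETO. In these counts no oxidase gene was called the other way.

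Ncf1 lay at 6.73, 6.46, 6.46 and 6.32 on the W692A arrays, at 6.00, 5.23 and 5.79 on the AML1/ETO arrays and at 7.74, 7.44 and 7.73 on the GFP arrays. The 3 groups did not overlap, with W692A in the middle. Ncf1 was 2.21-fold lower with W692A (-1.14 ± 0.17, adjusted p = 0.000259) and 3.90-fold lower with AML1/ETO (-1.96 ± 0.18, adjusted p = 7.25e-07) than with GFP, and higher with W692A than with AML1/ETO (0.82 ± 0.17, adjusted p = 0.00217). A second probe set differed from GFP by -1.12 with W692A and -1.51 with AML1/ETO. Ncf4 averaged 4.91 ± 0.28 with W692A, 4.54 ± 0.32 with AML1/ETO and 5.97 ± 0.18 with GFP (SD), lower than GFP with W692A (-1.06 ± 0.17, adjusted p = 0.000683) and with AML1/ETO (-1.43 ± 0.18, adjusted p = 2.34e-05).

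Cybb lay at 6.51, 5.66, 6.04 and 5.84 on the W692A arrays, at 6.36, 5.74 and 4.69 on the AML1/ETO arrays and at 5.85, 5.87 and 6.11 on the GFP arrays. The groups overlapped, apart from AML1/ETO replicate 3, which was the lowest of all arrays, and no comparison passed the test. Cybb was called lower with AML1/ETO than with GFP in the fit with the Gapdh covariate (-1.05, adjusted p = 0.00868). Cyba averaged 4.98 ± 0.38 with W692A, 4.31 ± 0.38 with AML1/ETO and 4.96 ± 0.30 with GFP (SD). It was called lower with AML1/ETO than with GFP (-0.66 ± 0.23, adjusted p = 0.0420) and higher with W692A than with AML1/ETO (0.67 ± 0.21, adjusted p = 0.0352), and each call was lost in 5 of 10 fits with an array left out.

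AML1/ETO replicate 3 differed most from the other AML1/ETO arrays in Ngp, Chil3, both calprotectin genes and Cybb. Against the mean of replicates 1 and 2, it was higher by 3.00 for Ngp, 2.48 for Chil3, 2.04 for S100a8, 1.69 for S100a9 and 1.10 for Camp, and decreased by 1.36 for Cybb and by 1.02 for Mmp8. These 5 genes at least 1 above compare with 0.275% of all genes, and the 2 at least 1 below with 0.198%. Among genes above the bound, they were 5 and 2 of 26, against 0.51% and 0.374% of 8820. It was the highest of the AML1/ETO arrays for 16 of 33 genes, against 35.8% of all genes. Among genes above the bound it was the highest for 15 of 26, against 39.8%. This array was singled out from earlier results of these data, so these values are a description with no test.

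Other genes of the set departed less. Replicate 3 was near the mean of the other AML1/ETO arrays for Lcn2 (0.30 higher), Hp (0.35 higher), Elane (0.08 higher) and Prtn3 (-0.38), and Ffar2 was 0.80 higher and still far below GFP. Replicate 3 also lay above that mean by 0.72 for Padi4, 0.60 for Ctsg, 0.55 for Ncf4 and 0.47 for Mpo, and below it by 0.61 for Lyz2 and 0.41 for Csf3r. Over all 33 genes, its mean level was 4.57, against 4.19 at the lowest AML1/ETO array and 4.53 to 4.80 with GFP. Markers of other cells on this array were 5.64 for mast cells and basophils, at the top of the AML1/ETO range of 5.00 to 5.64 (GFP 3.34 to 3.76), and 3.02 for eosinophils, at the top of 2.49 to 3.02 (GFP 3.80 to 4.00). Monocyte markers were at 5.13, the bottom of the AML1/ETO range. Of these lists 8 of 10, 4 of 7 and 11 of 13 measured genes were above the bound, and their part in the departure was not tested. The array's Gapdh difference of 5.04 was nearer to GFP than to its own group, and with that difference as a covariate in the fit of all arrays W692A was higher than AML1/ETO by 1.93 for Ngp, 1.43 for S100a8 and 1.14 for S100a9 (adjusted p = 0.00462, 7.81e-05 and 0.0289), against 2.02, 1.39 and 1.11 without replicate 3. Within its group this covariate mainly marks replicate 3, so between the constructs the fit acts much like leaving that array out. The likeness of these values is therefore no test of the part of the Gapdh difference. In AML1/ETO against GFP the fits parted. There Ngp, S100a8 and S100a9 differed by -1.75, -0.11 and -0.53 with the covariate, and by -4.12, -1.88 and -1.97 without replicate 3.

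**Figure D3:**
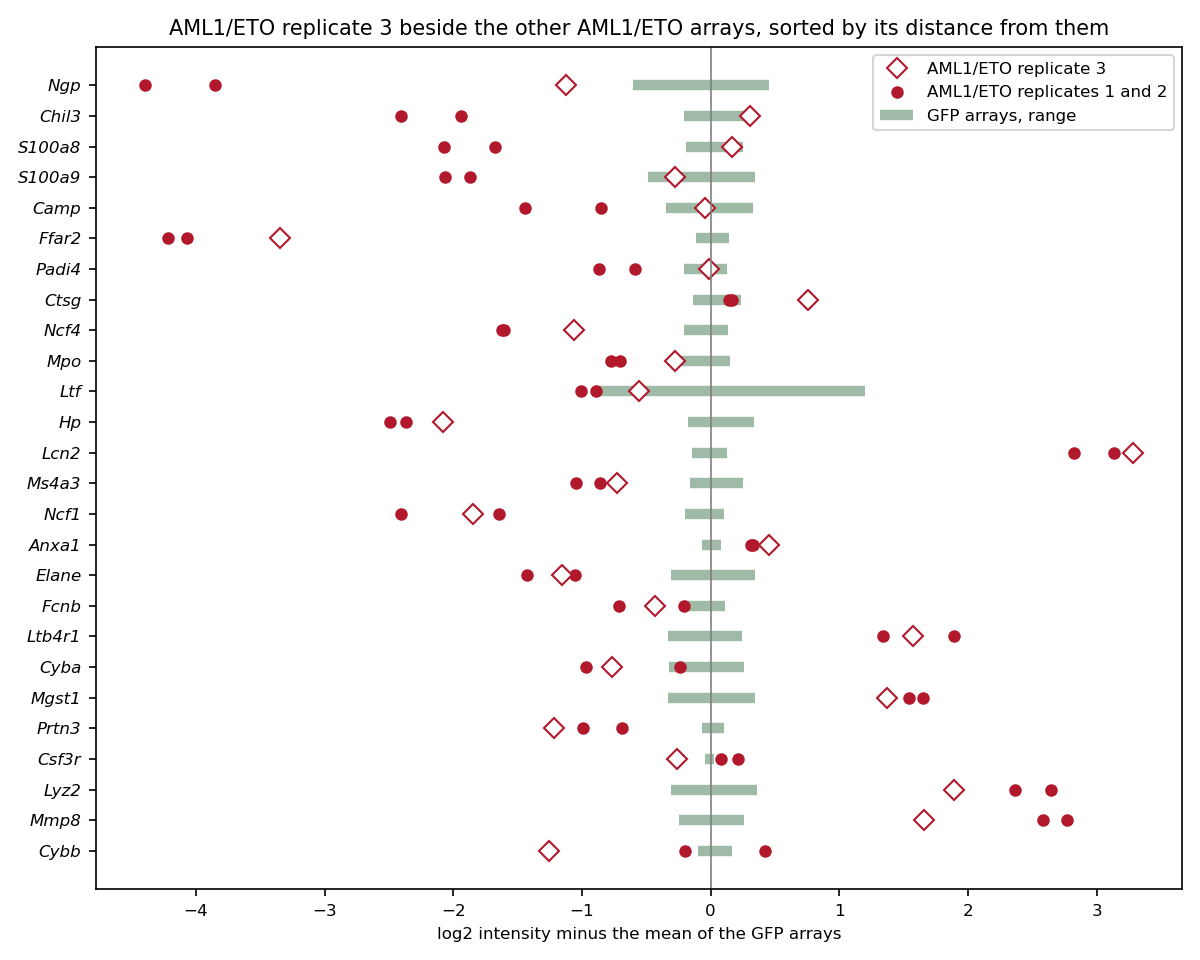
Log2 intensity minus the mean of the GFP arrays (horizontal axis) for the 26 genes above the bound: open diamonds are AML1/ETO replicate 3, filled circles replicates 1 and 2, and green bars the range of the 3 GFP arrays. From the top, Ngp, Chil3, S100a8, S100a9 and Camp are the genes in which replicate 3 lies at least 1 above the mean of the other AML1/ETO arrays, and Mmp8 and Cybb at the bottom those in which it lies at least 1 below.

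Without AML1/ETO replicate 3, the comparison of AML1/ETO with GFP had 14 lower and 6 higher genes, against 26.4% of all genes called (14.7% lower and 11.7% higher); Cyba was lost, and Mpo and Padi4 were gained. In W692A against AML1/ETO, 9 were higher and 3 lower, against 17.2% of all genes (8.05% higher and 9.19% lower). Here Ncf4, Ngp, S100a8 and S100a9 were gained on the higher side, and Csf3r, Cyba and Elane were lost. Ncf4, for example, was higher with W692A than with AML1/ETO by 0.56 (adjusted p = 0.0373) without that array, and by 0.37 (adjusted p = 0.160) with it. Lcn2, Ffar2, Lyz2, Ltb4r1, Padi4, Ncf1 and Hp kept their calls between the constructs.

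Further granule genes, fixed as a list beside the 33, moved in both directions. For genes outside the 33, calls are those of the fit of all 10 arrays without a covariate. Whether these calls hold with an array left out or with the Gapdh covariate was not examined. With that covariate, 2.78% of all genes were called in W692A against GFP, against 14.5% without it. Of 20 measured, 8 were higher and 3 lower with AML1/ETO than with GFP, and 5 higher and 3 lower with W692A than with GFP. With W692A 8 were lower and 1 higher than with AML1/ETO. Beside this and the next lists, 12.9% of all genes were higher and 15.8% lower with AML1/ETO than with GFP. With W692A 5.45% were higher and 9.07% lower than with GFP, and 9.61% higher and 11.1% lower than with AML1/ETO. Serpinb1a, an inhibitor of elastase, cathepsin G and proteinase 3, was 4.04-fold higher with W692A (2.01, adjusted p = 5.46e-08) and 7.63-fold higher with AML1/ETO (2.93, adjusted p = 4.59e-10) than with GFP. Its arrays read 9.66, 9.80, 9.53 and 9.49 with W692A, 10.58, 10.39 and 10.64 with AML1/ETO and 7.52, 7.50 and 7.79 with GFP. Against GFP the inhibitor was thus higher with both constructs, and Elane and Prtn3 were lower. Between the constructs this inverse order did not hold, since Serpinb1a and Elane were both lower with W692A than with AML1/ETO. A link between these genes was not tested. Clec4e, a C-type lectin receptor for mycobacterial glycolipid, rose by 1.83 with W692A and 2.33 with AML1/ETO on the log2 scale, while Cst7, an inhibitor of cysteine proteases, fell by 1.38 with W692A and fell by 1.09 with AML1/ETO (adjusted p = 2.95e-05 and 0.000141).

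Partners of the oxidase and genes of neutrophil adhesion moved as follows. Hvcn1, the proton channel that balances the charge of the oxidase, differed from GFP by -1.73 with W692A (adjusted p = 5.26e-06) and by -1.41 with AML1/ETO (adjusted p = 1.96e-05). Rac2, the small GTPase that activates the oxidase, averaged 5.74 with W692A, 4.92 with AML1/ETO and 5.94 with GFP. On AML1/ETO replicates 1, 2 and 3 it read 4.71, 4.58 and 5.46. Rac2 was lower than GFP only with AML1/ETO by the test (-1.02, adjusted p = 0.00105) and higher with W692A than with AML1/ETO (0.82, adjusted p = 0.00494). Of 6 measured oxidase partners, 3 were lower and 1 (Rac1) higher with AML1/ETO than with GFP, and 1 lower with W692A. Of 15 measured adhesion and lipid mediator genes, 4 were lower and 5 higher with AML1/ETO, and 6 lower and 3 higher with W692A, both against GFP. Itgb2, the common chain of the leukocyte integrins, averaged 4.89 with W692A, 3.79 with AML1/ETO and 6.42 with GFP. On AML1/ETO replicates 1, 2 and 3 it read 3.46, 3.31 and 4.59. Itgb2 was lower than GFP with W692A (-1.53, adjusted p = 0.000366) and AML1/ETO (-2.63, adjusted p = 1.01e-06), and higher with W692A than with AML1/ETO (1.10, adjusted p = 0.0028). Itgam, which encodes the chain that pairs with it on neutrophils, was below the bound on every array.

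Transcription factors of the granulocyte lineage formed another list. Of 18 measured, 5 were higher and 4 lower with AML1/ETO than with GFP, 4 higher and 4 lower with W692A than with GFP, and 3 higher and 3 lower with W692A than with AML1/ETO. In the same order, the shares over all genes were 12.9% and 15.8%, 5.45% and 9.07%, and 9.61% and 11.1%. The list includes Runx1 and Runx1t1, and whether their probe sets read the retroviral construct is not known. Cebpa, which encodes the C/EBPα that starts granulocyte differentiation, lay at 3.89, 4.13, 4.32 and 4.42 on the W692A arrays, at 2.34, 2.62 and 2.94 on the AML1/ETO arrays and at 5.11, 5.74 and 6.06 on the GFP arrays. The groups did not overlap and W692A lay between the others, as for Ffar2, Ncf1 and Itgb2. Cebpa was 2.73-fold lower with W692A (-1.45, adjusted p = 0.000198) and 8.04-fold lower with AML1/ETO (-3.01, adjusted p = 7.95e-08) than with GFP.

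Gfi1, a repressor needed for neutrophil maturation, lay at 3.28, 3.87, 3.05 and 3.99 on the W692A arrays, at 5.47, 5.65 and 6.06 on the AML1/ETO arrays and at 3.15, 3.46 and 3.35 on the GFP arrays. It was 5.30-fold higher with AML1/ETO than with GFP (2.41, adjusted p = 8.73e-07) and 4.53-fold lower with W692A than with AML1/ETO (-2.18, adjusted p = 3.28e-06), while W692A and GFP overlapped, as for Ltb4r1. Gfi1b, its relative of the erythroid and megakaryocyte lineages, was lower than GFP with W692A (-1.38, adjusted p = 0.000118) and AML1/ETO (-1.83, adjusted p = 4.35e-06). On AML1/ETO replicates 1, 2 and 3 Gfi1b read 3.10, 3.35 and 4.12. Spi1, which encodes PU.1 and is named here after its values were seen, was 1.51-fold lower with W692A (-0.59, adjusted p = 0.0217) and at least 1.94-fold lower with AML1/ETO (adjusted p = 0.000288) than with GFP.

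**Figure D4:**
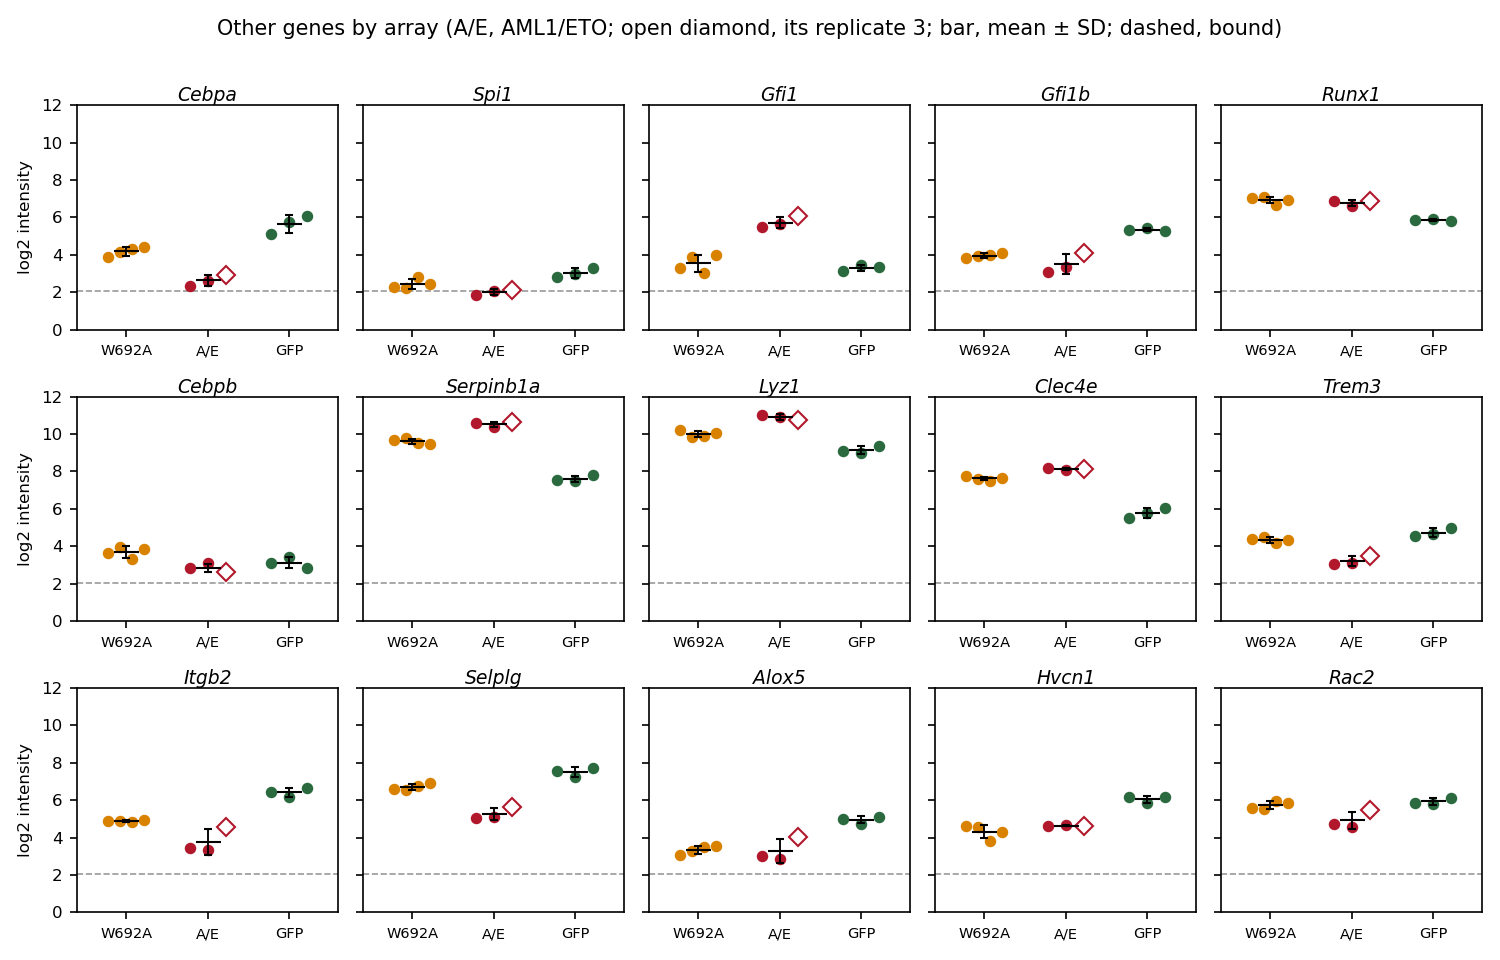
Log2 intensity (vertical axis) of 15 other genes on the 4 W692A, 3 AML1/ETO (A/E) and 3 GFP arrays, with the mean ± SD as a bar, AML1/ETO replicate 3 as an open diamond and the background bound of 2.04 as a dashed line. Cebpa, Itgb2 and Selplg are highest with GFP and lowest with AML1/ETO, Gfi1 is high with AML1/ETO alone, and Serpinb1a, Lyz1 and Clec4e are higher with both constructs than with GFP.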

How the data were processed

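Expression was measured on 1-colour Affymetrix mouse arrays, 1 per transduction (4 W692A, 3 AML1/ETO and 3 GFP). The values used are those the authors deposited, made with RMA per the submitters' processing notes, which give no version; RMA sets all arrays to 1 distribution, so a difference in total RNA per cell is not visible. That the deposited values are log2 was read from their range: the highest, 12.77, would be an intensity of 350219 as a natural log, above the 16-bit scanner limit of 65535, and is 6967 in base 2. Of 45101 probe sets, 34958 had 1 gene symbol in the platform annotation, with symbols updated through gene IDs, and the brightest on average of each of 18193 genes was kept.

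Groups were compared with limma 3.58.1 in R 4.3.3 (lmFit and eBayes, all 10 arrays in 1 fit, two-sided, Benjamini-Hochberg over 18193 genes, threshold 0.05), which was tested on simulated data. SE and 95% intervals are those of that fit. A fold with 1 side below the background bound is given as "at least", with that side set to the bound on each array, and none is given with both below. The genes, the other lists and the view of AML1/ETO replicate 3 were chosen with earlier results of these data known. Values on every array are given for Mpo, Elane, Prtn3 and Ctsg, for the 8 called genes with the largest difference in each comparison and for the 8 in which AML1/ETO replicate 3 lay farthest from its group. Other genes were added where a call needed them. From each further list at most 4 called genes per comparison were named, by size. Whether the labels' replicate numbers pair the arrays was not settled. Correlations of same-numbered arrays' deviations ran from -0.13 to 0.46, and those of differently numbered arrays from -0.40 to 0.32. The replicate 1 arrays gave 0.26 to 0.46. The fit reported does not pair arrays, and counts with the replicate number as a block are given below. Alternatives were a filter on dim genes, the bound as a floor, the mean of probe sets, further scalings, an intensity trend, array weights, the replicate block, the compared groups alone, the Gapdh difference as a covariate and each array left out.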

Additional observations from a re-analysis of the deposited data

Results flagged for a closer look

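Of the 33 genes, 1 had a W692A array far from the other 3 of its group: Cxcr2 read 1.95 on W692A replicate 3 and 1.12 to 1.22 on the others, all below the background bound of 2.04. Groups of 3 arrays were not examined in this way. Chance flags about 1 in 20 groups, so 1 in 33 is no more than chance gives.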

How the results depend on the processing

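With the background bound as a floor for all values, 8 genes were lower with AML1/ETO than with GFP (13 in the analysis reported), 2 were higher and 6 lower with W692A than with GFP (6 and 11), and 4 were higher with W692A than with AML1/ETO (7); 8930 genes had no variation then. With the Gapdh difference as a covariate, 2 were higher and 3 lower with W692A than with GFP, 230 genes in all were higher and 276 lower (991 and 1651 without it), and 3 of the 33 genes turned sign there: Ngp to 0.18 (adjusted p = 0.962), Camp to 0.073 (0.971) and S100a8 to 1.32 (0.0158). Leaving out each array in turn gave 6 to 7 higher and 8 to 14 lower with AML1/ETO than with GFP, 3 to 6 higher and 7 to 11 lower with W692A than with GFP, and 5 to 9 higher and 3 to 4 lower with W692A than with AML1/ETO. The cause of these changes was not tested, and the slope of the Gapdh covariate rests largely on AML1/ETO replicate 3. The other 114 counts stayed within 1.5 times. Of the values of the 33 genes under all alternatives, 1819 kept their side of the threshold and, where called, their direction, 119 lost and 30 gained a call, and 3 turned sign with a call on either side. With the replicate number as a block, the counts were 6 higher and 13 lower, 5 and 9, and 5 and 4, in the same order of comparisons, and Camp, Csf3r and Ltf (W692A against GFP) and Csf3r and Hp (W692A against AML1/ETO) lost their calls. With each array's median subtracted, the split over all genes was 2099 higher and 3259 lower (2339 and 2868 reported) with AML1/ETO than with GFP, and 2220 and 1682 (1748 and 2017) with W692A than with AML1/ETO; further quantile normalization gave 2009 and 1821 there, and 1262 and 1352 (991 and 1651) with W692A than with GFP. Values near the bound of 2.04 limit what can be said of Ltf, Camp, Fcnb, Mmp9, Cxcr2, Fpr2, Cd177, Itgb2l, Olfm4 and Pglyrp1.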

Other observations

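Tlr4, the receptor for bacterial lipopolysaccharide, was higher with AML1/ETO than with GFP by 2.07 (limma adjusted p = 5.80e-09), while W692A differed from GFP by 0.31 (adjusted p = 0.0805) and from AML1/ETO by -1.76. Tlr2, which senses bacterial lipoproteins, gave the same order, with 2.08 for AML1/ETO and 0.51 for W692A against GFP. Selplg, the selectin ligand that lets neutrophils roll on vessel walls, differed from GFP by -0.80 with W692A (adjusted p = 0.00408) and by -2.24 with AML1/ETO (adjusted p = 1.84e-07). Alox5, the enzyme that makes the precursor of leukotriene B4, differed from GFP by -1.61 with W692A and by -1.66 with AML1/ETO, and the constructs differed by 0.05 without a call. Alox5 lay at 3.05, 3.29, 3.52 and 3.53 on the W692A arrays and at 3.00, 2.85 and 4.04 on the AML1/ETO arrays. AML1/ETO replicates 1 and 2 were below all W692A arrays and replicate 3 above them, so the near-equal means rest on replicate 3. Ltb4r1, the receptor gene for leukotriene B4, was higher with AML1/ETO.

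Of 10 measured markers of mast cells and basophils, 6 were called higher and 0 lower with AML1/ETO than with GFP (12.9% of all genes were higher). With W692A 4 of 10 were higher and 0 lower than with GFP (5.45% of all genes were higher). Between the constructs, 7 of 10 were lower with W692A than with AML1/ETO (11.1% of all genes). Eosinophil markers were lower, 4 of 7 with W692A and 3 of 7 with AML1/ETO against GFP, where 9.07% and 15.8% of all genes were lower. Of 7 erythroid markers 3 were lower with W692A and 3 with AML1/ETO against GFP, beside the same 9.07% and 15.8% of all genes. Only 3 of the 7 were above the background bound in a group. Of 6 lymphoid markers 1 was above the background bound and at most 1 was called in a comparison, which is near the share over all genes.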
